A study of Homo sapiens with 36 samples.

Results

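The mRNAs of 6 enzymes of serine synthesis and the mitochondrial one-carbon pathway, PHGDH, PSAT1, PSPH, SHMT2, MTHFD2 and MTHFD1L, were followed in HCT116 cells through 5-fluorouracil (5-FU) treatment and the days after it. The genes were taken by symbol and not by a cut on measured values. Earlier results of these data were known when they were chosen. All 6 were among the 15891 genes listed. HCT116 is an established human colorectal carcinoma line, and 5-FU is a fluorinated uracil used as a chemotherapy drug. Cells received 10 µM 5-FU for 48 h and were collected on D0 (before the drug), D1, D2, D7, D14 and D16. On each day RNA was sequenced from a heavy polysome pool, which holds mRNA carrying more than 3 ribosomes, and from the whole cytoplasm. In what follows, "on ribosomes" refers to this pool. Its values are scaled per library, so they are relative levels and not amounts of bound mRNA. Each of the 12 groups had 3 libraries, lettered A, B and C, which gave 36 libraries, and all groups shared a brief exposure to emetine, an inhibitor of translation elongation, before lysis.

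De novo serine synthesis draws 3-phosphoglycerate from glycolysis: PHGDH oxidises it, PSAT1 adds the amino group, and PSPH removes the phosphate to give serine. In mitochondria SHMT2 splits serine into glycine and a one-carbon unit carried by folate, MTHFD2 oxidises that unit, and MTHFD1L releases it as formate, which the cytosol uses for purines and for the methylation of deoxyuridylate by thymidylate synthase, the enzyme that 5-FU metabolites inhibit. Several of these genes are known targets of the stress-response transcription factor ATF4, and colorectal tumours are known for high expression of the mitochondrial branch.

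No culture without the drug is labelled for any later day, so the drug and time in culture cannot be told apart. Any handling that sets D16 off from D14 is not given in the sources used here. The labels call the letters batches and do not say that they were separate cultures, so p-values measure the spread between these libraries. In bulk RNA, fewer cells with a transcript and less transcript per cell cannot be told apart. Depth was 46.15 to 55.68 megareads per library for polysomes (median 51.69) and 41.03 to 103.6 megareads for cytoplasm (median 48.04). The cytoplasmic libraries D2 C, D7 A, D14 B and D16 B were described as standing apart in an earlier account of these data, and many of the results that rest on them are also given without them. Of 8 epithelial and HCT116 markers, 6 were listed, with EPCAM, an epithelial adhesion molecule, between 6163 and 18936 normalised counts; LGR5 and CEACAM5 were not listed. Of 12 markers of other cell types, 3 were listed (COL1A1, ACTA2 and SYP), and their summed level was 679 to 2159 in the heavy pool and 487 to 2401 in the cytoplasm, lowest at D0 in both; their part in the results was not tested.

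The sequences upstream of 4 of the 6 genes are shown because the day courses of these genes are compared. They are RefSeq windows of 300 bases on the + strand of GRCh38.p14, from 250 bases before to 50 bases after an annotated start, printed 5′ to 3′. PSPH and SHMT2 had no entry. Capitals mark matches, on either strand, to the CCAAT box (CCAAT, the letters read by the factor NF-Y), the E-box (CACGTG, read by MYC and related factors) and the composite of ATF4 and C/EBP factors (TGATGNAA). The windows are chr1:119711684-119711983 for PHGDH, chr9:78296875-78297174 for PSAT1, chr2:74198365-74198664 for MTHFD2 and chr6:150866236-150866535 for the first of 4 windows listed for MTHFD1L.
PHGDH: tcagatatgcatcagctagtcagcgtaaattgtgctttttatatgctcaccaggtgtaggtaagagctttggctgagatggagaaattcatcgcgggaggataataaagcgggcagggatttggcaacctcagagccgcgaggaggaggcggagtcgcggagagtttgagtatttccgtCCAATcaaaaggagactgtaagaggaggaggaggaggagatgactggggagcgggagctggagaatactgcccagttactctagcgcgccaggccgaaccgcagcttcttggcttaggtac
PSAT1: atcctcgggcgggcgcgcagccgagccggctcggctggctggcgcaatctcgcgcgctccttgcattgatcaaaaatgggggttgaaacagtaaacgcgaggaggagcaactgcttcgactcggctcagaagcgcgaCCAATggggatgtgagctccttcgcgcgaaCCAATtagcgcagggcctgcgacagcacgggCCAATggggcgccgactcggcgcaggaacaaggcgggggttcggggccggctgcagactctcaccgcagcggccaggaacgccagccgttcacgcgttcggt
MTHFD2: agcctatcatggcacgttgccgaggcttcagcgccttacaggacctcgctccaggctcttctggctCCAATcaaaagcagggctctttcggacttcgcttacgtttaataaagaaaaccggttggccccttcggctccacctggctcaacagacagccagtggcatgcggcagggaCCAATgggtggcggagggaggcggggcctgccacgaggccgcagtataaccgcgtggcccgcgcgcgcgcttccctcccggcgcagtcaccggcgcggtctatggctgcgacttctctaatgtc
MTHFD1L: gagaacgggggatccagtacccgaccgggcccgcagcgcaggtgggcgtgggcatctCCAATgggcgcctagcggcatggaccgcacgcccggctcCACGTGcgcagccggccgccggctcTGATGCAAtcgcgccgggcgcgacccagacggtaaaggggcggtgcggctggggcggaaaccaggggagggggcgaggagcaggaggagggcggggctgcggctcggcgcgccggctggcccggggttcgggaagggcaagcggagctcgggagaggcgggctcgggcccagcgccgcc
All 4 windows held at least 1 CCAAT box, which 34.6% of 35116 RefSeq windows of that length also held. PHGDH had 1, starting at position -71 from the start. PSAT1 had 3, at -113, -83 and -52, and MTHFD2 had 2, at -184 and -74. MTHFD1L was alone among the 4 in holding the ATF4 composite, at -129, and an E-box, at -154, which 3.62% and 7.26% of all windows held. These positions depend on the annotated start taken. In windows 2 and 3 of MTHFD1L, which overlap the window printed, the composite lay at 25 and -90. There the E-box lay at -1 and -115. Window 4 held no match to any of the motifs. These matches describe the letters of the windows and not where a factor binds, and no motif overlapped another.

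At D0 all 6 transcripts were abundant, and the order of their levels differed little between the fractions. Levels are compared between genes per length, as reads per kilobase of the longest annotated transcript per megaread (RPKM). In the heavy pool PSAT1 averaged 234 ± 21.9 RPKM, SHMT2 221 ± 13.8, PHGDH 181 ± 12.7, MTHFD2 126.5 ± 2.4, MTHFD1L 46.8 ± 1.8 and PSPH 26.4 ± 1.9 (SD, n = 3). In the cytoplasm PSAT1 averaged 122 ± 18.7 RPKM, SHMT2 104 ± 13.2, MTHFD2 100.5 ± 12, PHGDH 85.4 ± 4.2, MTHFD1L 31.4 ± 3.7 and PSPH 25.8 ± 2.0 (SD, n = 3). PSPH, the last enzyme of serine synthesis, was thus the lowest of the 6 per length in both fractions, and PSAT1 and SHMT2 lay within each other's spread by this length. The place of PHGDH depends on the length used: over the union of its annotated exons its cytoplasmic level was 29.5 ± 1.5 RPKM. SHMT2 does too: over the union it had 156 ± 9.7 RPKM in the heavy pool and 73.6 ± 9.3 in the cytoplasm, below PSAT1 in both and below MTHFD2 (92.0) in the cytoplasm.

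All 6 mRNAs were lower in the heavy pool during the drug, and most stayed lower than at D0 to the last day. Against D0, the number of the 6 called lower in the heavy pool (limma, Benjamini-Hochberg adjusted p under 0.05 over all genes) was 6 on D1, 6 on D2, 5 on D7, 5 on D14 and 6 on D16. The share of all tested genes called lower was 26.9% on D1, 34.5% on D2, 36.5% on D7, 37.6% on D14 and 36.6% on D16. In the cytoplasm the number called lower was 2, 5, 5, 4 and 4 on those days, against 7.09%, 10.6%, 15.7%, 5.05% and 7.26% of all genes, and none of the 6 was called higher in either fraction. The median log2 difference of the 6 at D2 was -2.06 in the heavy pool and -1.19 in the cytoplasm, against medians over all genes of -0.03 and -0.00. Across all 6 days the F test called 6 of 6 in the heavy pool (95.1% of all genes) and 6 of 6 in the cytoplasm (61.5%). PSPH lost its heavy pool calls at D2 and D16 when libraries were scaled to equal totals (0.05 and -0.00), and its D2 call without letter B (-0.25). At D7 PSPH, at 0.18 as deposited, was called higher in the heavy pool with equal totals (0.47) and with trimmed mean of M values scaling (0.22); its adjusted p ranged from 5.93e-05 to 0.332 over the alternatives. The heavy pool calls of the other 5 genes against D0 held under every alternative run.

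Scaling to equal totals moved all genes together, by a log2 shift against D0 of 0.19, 0.38, 0.29, 0.32 and 0.42 in the heavy pool and -0.24, -0.11, -0.32, 0.15 and 0.16 in the cytoplasm on D1, D2, D7, D14 and D16. With it, higher genes made up 67.9%, 71.7%, 64.5%, 65.0% and 70.7% of heavy pool calls on those days, against 42.7%, 46.8%, 42.5%, 47.8% and 49.7% as deposited. In the cytoplasm the share was 46.1% on D1, 36.2% on D7, 77.5% on D14 and 72.8% on D16, against 60.5%, 53.9%, 60.5% and 56.6% as deposited.

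**Figure D1:**
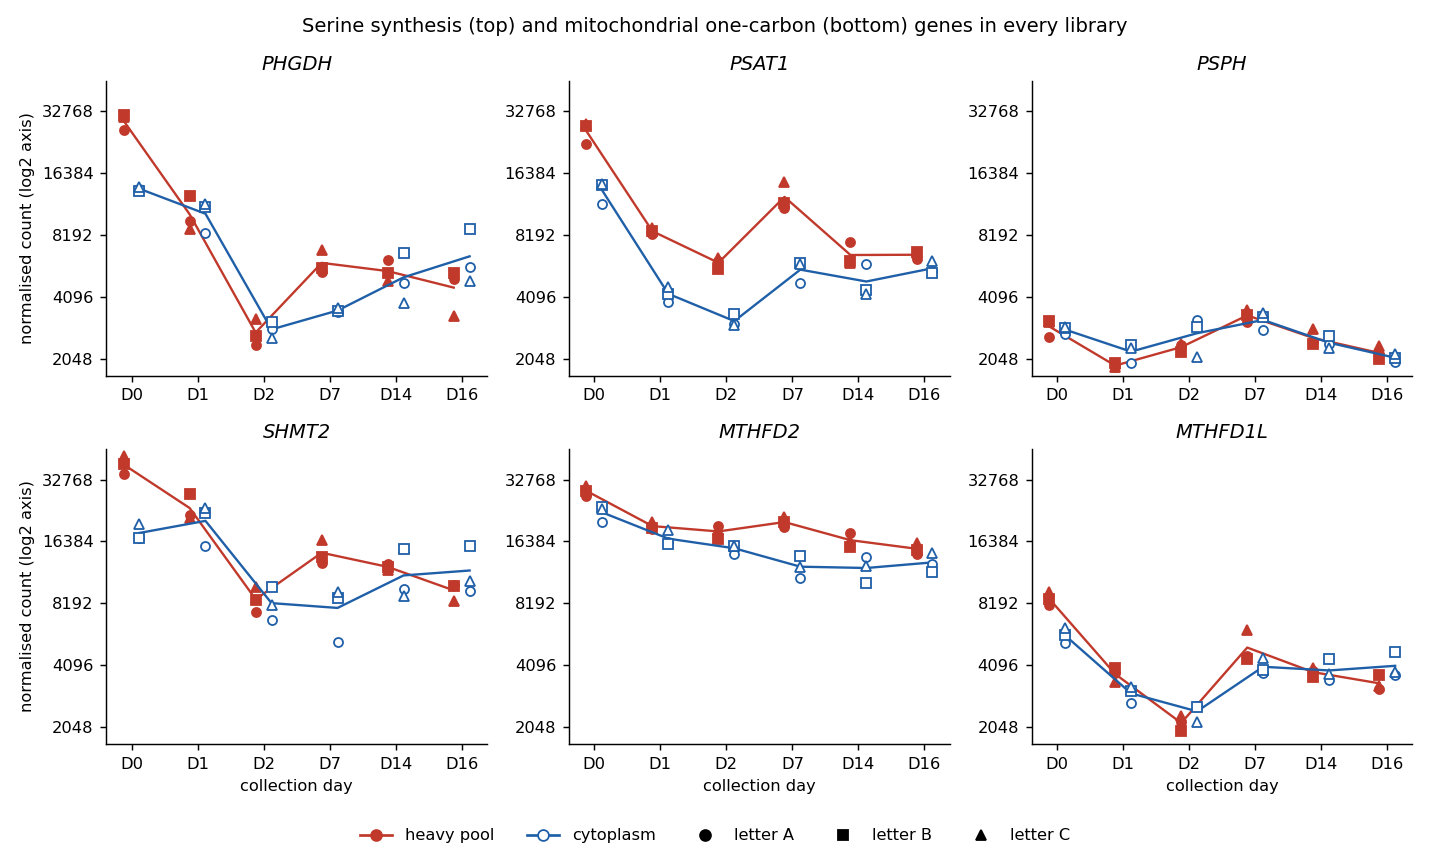
Normalised counts (log2 axis) of each of the 6 genes in all 36 libraries by collection day, with the heavy pool in filled red and the cytoplasm in open blue symbols, symbol shapes for letters and lines through the mean of 3 libraries. PHGDH, PSAT1, SHMT2 and MTHFD1L drop steeply to D2 in both fractions, MTHFD2 declines gradually, and PSPH stays between 1872 and 3544.

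PHGDH, the first enzyme of serine synthesis (ENSG00000092621, chromosome 1:119648411-119744226, + strand, GRCh38), showed the largest fall of the 6. Its heavy pool libraries had 2387, 2661 and 3220 normalised counts in letters A, B and C at D2, against 26478, 31309 and 30692 at D0. In the cytoplasm it had 2877, 3098 and 2586 at D2, against 13764, 13486 and 14064 at D0. No D2 library came near a D0 library in either fraction. The log2 difference at D2 was -3.43 ± 0.16 (SE) in the heavy pool, a 10.8-fold lower level (limma adjusted p = 2.34e-14), and -2.27 ± 0.22 in the cytoplasm, 4.84-fold lower (adjusted p = 8.16e-07).

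At D1 the fall of PHGDH was called on ribosomes and not in the cytoplasm, and the difference between the fractions (-1.11) was itself called, but not with equal totals (-0.66) or with any 1 letter left out. At D1 the heavy pool held 9649, 12672 and 8737 normalised counts of PHGDH and the cytoplasm 8387, 11295 and 11563. The heavy pool was 2.88-fold lower than at D0 (log2 -1.52 ± 0.16 SE, adjusted p = 7.50e-08), while the cytoplasmic difference of -0.42 ± 0.22 did not pass (adjusted p = 0.195) and passed without the libraries that stand apart. The 3 cytoplasmic D1 libraries nevertheless all lay below the 3 of D0. From D7 on PHGDH stayed below D0 in every library: the heavy pool held 5412 to 6972 at D7, 4896 to 6189 at D14 and 3317 to 5345 at D16, and the cytoplasm 3452 to 3616, 3831 to 6720 and 4934 to 8759. Letter B was the highest cytoplasmic library of PHGDH at D14 and D16, and without letter C the cytoplasmic calls of those days were lost (-1.26 and -0.95, against -1.47 and -1.13 with all letters). Both calls held without the libraries that stand apart.

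PSAT1, the aminotransferase of the second step (ENSG00000135069, chromosome 9:78297143-78330093, + strand), fell by similar sizes in both fractions, already at D1. Its heavy pool level was 6136, 5607 and 6312 normalised counts in letters A, B and C at D2, against 22665, 27864 and 28314 at D0. Its cytoplasmic level was 3899, 4249 and 4606 at D1 and 3020, 3385 and 2993 at D2, against 11636, 14350 and 14555 at D0. Later libraries and D0 did not overlap on any day in either fraction. The log2 difference at D1 was -1.61 ± 0.11 (SE) in the heavy pool and -1.66 ± 0.17 in the cytoplasm (limma adjusted p = 8.92e-11 and 2.86e-06), and at D2 it was -2.12 ± 0.11 and -2.10 ± 0.17 (adjusted p = 1.67e-13 and 9.04e-08). At D7 the heavy pool had 11132, 11740 and 14853, above every library of D1, D2, D14 and D16. All 10 calls of PSAT1 against D0 held under every alternative run.

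PSPH, the phosphatase of the last step (ENSG00000146733, chromosome 7:56011051-56051604, - strand), had the smallest difference from D0 of the 6 at D2 in both fractions. It had 2397, 2211 and 2415 normalised counts in the heavy pool at D2, against 2635, 3119 and 3100 at D0, and 3172, 2926 and 2107 in the cytoplasm at D2, against 2709, 2894 and 2946 at D0. The groups did not overlap in the heavy pool and overlapped in the cytoplasm. The lowest heavy pool day was D1, with 1872, 1961 and 1879 (log2 -0.63 ± 0.09 SE, limma adjusted p = 1.07e-05). No cytoplasmic difference of PSPH from D0 passed on any day with all libraries; without those that stand apart it was called lower at D1 (-0.36) and D16 (-0.45). The cytoplasmic D2 difference was -0.08, with a 95% interval of -0.44 to 0.28, and was 0.10 without the libraries that stand apart. The pseudogene PSPHP1 can share reads with PSPH: its listed level was 1.83% to 13.8% of that of PSPH in the heavy pool and 6.06% to 42.9% in the cytoplasm, so the values of PSPH are less certain than those of the others. PSAT1P3, a pseudogene of PSAT1, was at most 1.11% of PSAT1.

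SHMT2, the mitochondrial serine hydroxymethyltransferase (ENSG00000182199, chromosome 12:57229327-57234935, + strand), was the most abundant of the 6 in the heavy pool at D0 by normalised count. It had 7444, 8489 and 9795 normalised counts in the heavy pool at D2, against 34858, 38994 and 42452 at D0 (log2 -2.18 ± 0.12 SE, 4.53-fold lower, limma adjusted p = 3.52e-13). In the cytoplasm it had 6788, 9815 and 8045 at D2, against 17024, 17052 and 19990 at D0 (-1.15 ± 0.26, adjusted p = 0.00368), and the call was lost without letter C (-1.06). Neither pair of groups overlapped. At D1 the heavy pool was lower than at D0 (22135, 27893 and 21420; -0.71 ± 0.12, adjusted p = 4.16e-05), while the cytoplasm, at 15508, 22612 and 23775, overlapped D0 (0.17 ± 0.26, and -0.07 with equal totals). The difference between the fractions at D1 did not pass (-0.88, adjusted p = 0.0751, and -0.44 with equal totals).

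Later cytoplasmic SHMT2 varied with the letter. It was 9639, 15071 and 8898 normalised counts in letters A, B and C at D14 and 9378, 15549 and 10580 at D16, against 17024 to 19990 at D0, so letter B stood nearest to D0 on both days. The differences were -0.72 ± 0.26 and -0.64 ± 0.26 (SE) and did not pass (limma adjusted p = 0.0807 and 0.109). Both passed with the letter as a block (adjusted p = 0.0151 and 0.0240), where the range over all alternatives was 0.00326 to 0.527 at D14 and 0.00573 to 0.479 at D16. Both also passed with only the groups compared (limma adjusted p = 0.0453 and 0.0487). Without the libraries that stand apart both were lower (-0.96 and -0.85) and passed (limma adjusted p = 0.00326 and 0.00573). They passed in these 3 of 11 alternatives. In the cytoplasmic libraries D14 B and D16 B the deviation of all genes from the other letters correlated with transcript GC content (Spearman 0.776 and 0.726 across genes, which are not independent). SHMT2, at 57.0% GC, PHGDH, at 52.3%, and MTHFD1L, at 51.9%, were highest in those libraries. PSAT1, at 42.3%, and MTHFD2, at 41.4%, were not. PSPH, at 49.8%, was highest in D14 B and not in D16 B. Such correlations, of smaller size, were not confined to D14 B and D16 B. In the cytoplasm they were 0.530 in D1 B, -0.487 in D0 B and -0.467 in D2 C. In the heavy pool they were -0.475 in D2 A, -0.473 in D1 C and 0.450 in D1 B. The part of GC content in the values of these genes was not tested.

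MTHFD2, the mitochondrial methylene-tetrahydrofolate dehydrogenase (ENSG00000065911, chromosome 2:74198562-74217565, + strand), had smaller heavy pool differences from D0 than SHMT2 and MTHFD1L on each of the 5 later days. In the cytoplasm its differences at D14 and D16 (-0.90 and -0.81) were larger than those of SHMT2 (-0.72 and -0.64) and MTHFD1L (-0.57 and -0.50); differences between genes were not tested. It had 19530, 16823 and 18627 normalised counts in the heavy pool at D2, against 27275, 28898 and 30432 at D0, and 14241, 15643 and 15655 in the cytoplasm at D2, against 20404, 24047 and 23591 at D0. No library of D2 reached one of D0. The log2 difference was -0.66 ± 0.09 (SE) in the heavy pool and -0.58 ± 0.16 in the cytoplasm (limma adjusted p = 6.34e-07 and 0.0141). While PHGDH, PSAT1 and MTHFD1L had their lowest means at D2, MTHFD2 was at its lowest mean at D16 in the heavy pool, at 15098 ± 966 (SD, n = 3), and at D14 in the cytoplasm, at 12174 ± 1740, but neighbouring days overlapped. Its cytoplasmic calls at D2, D14 and D16 were lost without letter B (-0.56, -0.74 and -0.69), without letter C (-0.57, -0.90 and -0.86) and with equal totals (-0.69, -0.76 and -0.64), and its D7 call without letter C (-0.85).

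MTHFD1L, the mitochondrial enzyme that releases formate (ENSG00000120254, chromosome 6:150865549-151101887, + strand), fell steeply on ribosomes. It had 2178, 1954 and 2315 normalised counts in the heavy pool at D2, against 8003, 8607 and 9307 at D0, and 2612, 2563 and 2167 in the cytoplasm at D2, against 5259, 5721 and 6208 at D0. The groups were far apart in both fractions. The log2 difference at D2 was -2.01 ± 0.11 (SE) in the heavy pool, 4.02-fold lower, and -1.23 ± 0.16 in the cytoplasm, 2.34-fold lower (limma adjusted p = 4.48e-13 and 3.03e-05). It was among the 2 genes called lower in the cytoplasm at D1, at -0.94 ± 0.16 (adjusted p = 0.000852), with PSAT1, and this call was lost without letter C (-0.93). Its later cytoplasmic differences were smaller, at -0.51 on D7, -0.57 on D14 and -0.50 on D16, and their calls were lost when any 1 letter was left out (-0.49 to -0.52 on D7, -0.49 to -0.67 on D14 and -0.39 to -0.61 on D16). With equal totals the D14 and D16 calls were lost (-0.42 and -0.33). The D16 call was also lost with trimmed mean of M values scaling (-0.48) and with only the groups compared. Without the libraries that stand apart these calls held.

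**Figure D2:**
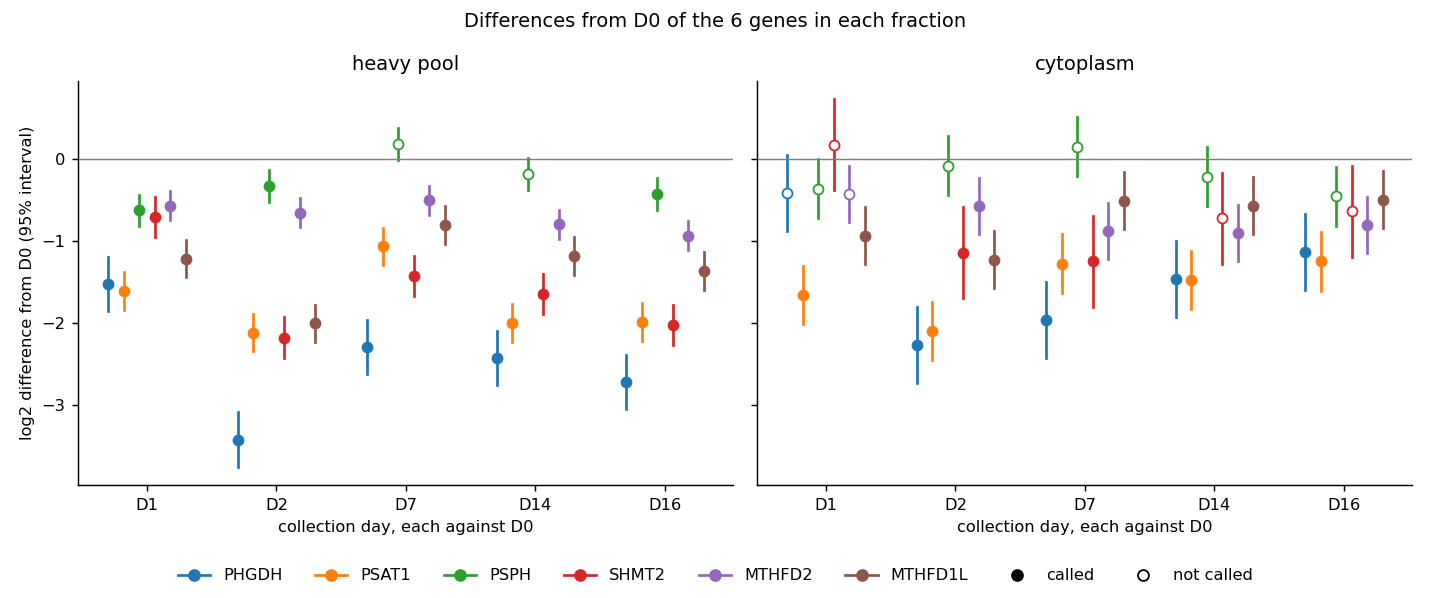
Log2 difference from D0 of the 6 genes on D1, D2, D7, D14 and D16 in the heavy pool (left) and the cytoplasm (right), with 95% intervals from limma; filled points passed an adjusted p of 0.05 and open points did not. In the heavy pool PHGDH reaches -3.43 at D2, and PSPH and MTHFD2 stay closest to 0.

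Between successive collections, the drop split over the 2 days of the drug, and part of it was regained on ribosomes by D7. From D1 to D2 the heavy pool lost PHGDH (-1.90), SHMT2 (-1.47), MTHFD1L (-0.79) and PSAT1 (-0.51), 4 of 6 called lower against 24.8% of all genes, and gained PSPH (0.30), called higher with 26.5% of all genes and not without letter A (0.27). In the cytoplasm PHGDH (-1.86) and SHMT2 (-1.32) were called lower over that step, against 4.89% of all genes, and neither was called without letter C (-1.70 for PHGDH and -1.20 for SHMT2), nor SHMT2 with equal totals (-1.19). On ribosomes 5 of 6 were higher at D7 than at D2, against 28.7% of all genes: MTHFD1L by 1.20 ± 0.11 (SE), PHGDH by 1.13 ± 0.16, PSAT1 by 1.05 ± 0.11, SHMT2 by 0.75 ± 0.12 and PSPH by 0.51 ± 0.09, and these 5 calls held under every alternative run. In the cytoplasm PSAT1 (0.83) and MTHFD1L (0.72) were called higher at D7 than at D2, against 9.48% of all genes, and both calls were lost without letter C (0.74 and 0.57) and with equal totals (0.61 and 0.51).

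After D7 the heavy pool levels moved down again. From D7 to D14, 4 of 6 were called lower, against 28.9% of all genes: PSAT1 by -0.93 ± 0.11 (SE), MTHFD1L by -0.38 ± 0.11, PSPH by -0.37 ± 0.09 and MTHFD2 by -0.29 ± 0.09; PSPH and MTHFD2 lost the call without letter B (-0.31 and -0.24). From D14 to D16 SHMT2 alone was called lower (-0.38 ± 0.12, limma adjusted p = 0.0271), against 10.2% of all genes, and not with equal totals (-0.28), without letter A (-0.40) or without letter B (-0.41); all genes called in either direction numbered 2989, with 538 without letter A and 791 without letter B. For that step, with the letter as a block PSPH was also called (-0.24, adjusted p = 0.0477, against a range of 0.0477 to 0.283 over the alternatives). In the cytoplasm none of the 6 was called between D7 and D14, when 35.6% of all genes were. PHGDH (0.50) and SHMT2 (0.53) were called higher there with the letter as a block, and with equal totals (0.97 and 1.00). Between D14 and D16 no gene was called in the cytoplasm (0 of 15889 by limma; 230 at an unadjusted p under 0.05, none of them among the 6). With equal totals, higher genes made up 69.2% of heavy pool calls from D1 to D2, 71.2% from D14 to D16 and 76.2% of cytoplasmic calls from D7 to D14, against 51.7%, 46.0% and 46.4% as deposited.

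At D0 most of these mRNAs were richer in the heavy pool than in the cytoplasm. The log2 difference was 1.10 ± 0.21 (SE) for SHMT2, 1.09 ± 0.20 for PHGDH, 0.96 ± 0.14 for PSAT1, 0.59 ± 0.14 for MTHFD1L and 0.35 ± 0.12 for MTHFD2, all called higher (limma adjusted p = 0.000118, 7.98e-05, 3.79e-06, 0.000760 and 0.0180), against 26.7% of all genes and a median over all genes of 0.14. PSPH, at 0.05 ± 0.13, did not pass. The call of MTHFD2 was lost when any 1 letter was left out (0.32 to 0.39) and with equal totals (0.34). The levels of both fractions rest on the size factors of the deposited table.

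For 4 of the 6 the excess in the heavy pool was called smaller than at D0, on days that differed between the genes. PSAT1 was called only at D14 and D16. Of all 15891 genes, 7280 were called different between the fractions at D0, 9262 at D1, 7340 at D2 and 9000 at D7. At D14 this number was 196 and at D16 it was 135. The smaller difference on those days was thus not particular to these 6. Of 20 cytosolic aminoacyl-tRNA synthetases, 17 were called higher in the heavy pool at D0 and 0 at D14. Their change at D14 was called lower for 13. For PHGDH the log2 of heavy pool over cytoplasm was 0.94, 1.22 and 1.13 in letters A, B and C at D0, 0.20, 0.17 and -0.40 at D1, and -0.27, -0.22 and 0.32 at D2. It stood at 0.65, 0.69 and 0.95 at D7, then at 0.37, -0.33 and 0.35 at D14 and -0.19, -0.71 and -0.57 at D16. No letter of D1, D2, D14 or D16 reached those of D0, while D7 touched them. The change against D0, tested as the interaction of fraction and day, was -1.11 ± 0.29 (SE) at D1, -1.15 ± 0.29 at D2, -0.33 ± 0.29 at D7, -0.96 ± 0.29 at D14 and -1.59 ± 0.29 at D16 (limma adjusted p = 0.030, 0.0277, 0.545, 0.0136 and 0.000236).

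SHMT2 had mean log2 values of heavy pool over cytoplasm of 1.10, 0.22, 0.07, 0.93, 0.18 and -0.29 over D0, D1, D2, D7, D14 and D16, close to those of PHGDH. Its change was called at D14 (-0.93 ± 0.30 SE) and D16 (-1.39 ± 0.30), and at D1 (-0.88) and D2 (-1.04) with the letter as a block (adjusted p = 0.0365 and 0.0222, against ranges of 0.00321 to 0.480 and 0.00165 to 0.482 over the alternatives). The D1 and D2 changes were also called with only the groups compared and without the libraries that stand apart, so in 3 of 11 alternatives. PSAT1 had means of 0.96, 1.01, 0.94 and 1.17 over D0, D1, D2 and D7, with no call there, and was called lower at D14 (-0.52 ± 0.20) and D16 (-0.74 ± 0.20). MTHFD1L was called lower at D2 (-0.78 ± 0.19), D14 (-0.61 ± 0.19) and D16 (-0.87 ± 0.19). MTHFD2 and PSPH were not called on any day, with changes between -0.15 and 0.38 for MTHFD2 and between -0.27 and 0.03 for PSPH; with equal totals MTHFD2 was called higher at D7 (0.99), and without the libraries that stand apart PSPH was called lower at D2 (-0.43).

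Of the 6, the number called lower in this comparison was 1 at D1, 2 at D2, 0 at D7, 4 at D14 and 4 at D16, against 3.37%, 2.03%, 3.2%, 16.7% and 17.9% of all genes; at D7, 1 of the 6 had an unadjusted p under 0.05. The F test over all days called 4 of 6, against 54.1% of all genes. The calls depended on the scaling and on whether all 3 letters were kept. With equal totals none was called lower at D1, D2, D7 or D14 and 2 at D16 (PHGDH and SHMT2), and higher genes made up 50.0%, 77.3%, 88.3%, 78.6% and 74.7% of all calls, against 18.9%, 1.83%, 19.0%, 40.8% and 39.2% as deposited. The D1 and D2 calls were lost when any 1 letter was left out (PHGDH -0.90 to -1.29 at D1 and -1.01 to -1.32 at D2, MTHFD1L -0.68 to -0.92 at D2). Calls over all genes in either direction then also fell, from 661 to between 0 and 85 at D1. At D2 they fell from 328 to between 4 and 34. For the 6, between 0 and 2 calls were left at D14. At D16 it was 3 or 4 of them, where PSAT1 lost its call without letter B (-0.80) and without letter C (-0.69). Without the libraries that stand apart the calls numbered 2, 4, 0, 4 and 4 on the 5 days.

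**Figure D3:**
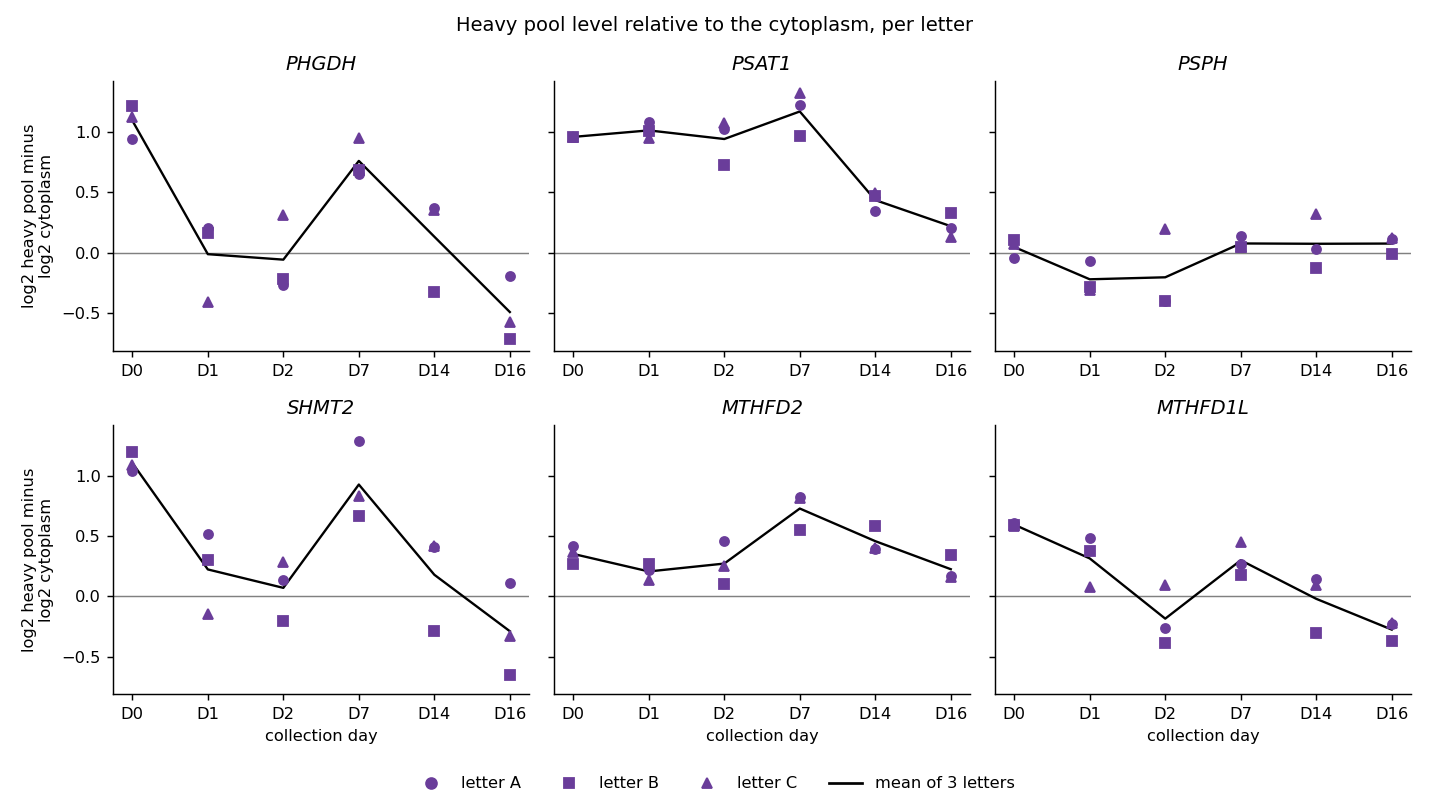
Log2 normalised count in the heavy pool minus that in the cytoplasm of the same letter, by collection day, for each gene; symbols are letters and the line is the mean of 3. PHGDH and SHMT2 start near 1.1, lie near 0 at D1 and D2 (0.22 for SHMT2 at D1), stand higher at D7 and end below 0, while PSAT1 stays near 1 until D7.

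Ratios of 2 genes within a library do not depend on the scaling. The ratio of PHGDH to PSPH, the first to the last enzyme of serine synthesis, was a log2 of -0.01, 0.27 and 0.41 in the heavy pool at D2, against 3.33, 3.33 and 3.31 at D0, and -0.14, 0.08 and 0.30 in the cytoplasm at D2, against 2.35, 2.22 and 2.26 at D0. Their counts, far apart at D0, were thus near equal at D2. The ratio of PHGDH to PSAT1 in the heavy pool was -1.14 at D2 and -1.06 at D7, against 0.17 at D0, and at D1 (0.26) it overlapped D0. In the cytoplasm it was 1.28 at D1 and -0.65 at D7, against 0.03 at D0, and at D2 (-0.14) it overlapped D0. None of the other groups named overlapped D0; with 3 libraries against 3 the smallest two-sided exact permutation p is 0.1, which each of them had.

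The mitochondrial enzymes were also set against their cytosolic counterparts. SHMT2 to SHMT1, the cytosolic serine hydroxymethyltransferase, was a log2 of 1.51 ± 0.09 in the heavy pool at D2, against 2.34 ± 0.10 at D0, and 1.90 ± 0.29 in the cytoplasm at D2, against 2.28 ± 0.16 at D0 (SD, n = 3). On D1, D7, D14 and D16 it was 2.03, 1.65, 2.15 and 2.12 in the heavy pool. In the cytoplasm it was 2.30, 1.55, 2.14 and 2.29 on those days, and D1, D14 and D16 overlapped D0. MTHFD2 to MTHFD1, the cytosolic trifunctional folate enzyme, went the other way at D2, at 2.27 ± 0.15 in the heavy pool, against 1.03 ± 0.08 at D0, and 2.00 ± 0.06 in the cytoplasm, against 1.63 ± 0.11 at D0 (SD, n = 3). In the cytoplasm that was the only day above D0, with means of 1.00 at D1, 1.26 at D7, 1.03 at D14 and 1.11 at D16. On ribosomes it was 0.64 at D1, 1.27 at D7, 1.58 at D14 and 1.73 at D16, and D7 overlapped D0. MTHFD1L to MTHFD1 was lowest at D1. It was -1.75 ± 0.14 in the heavy pool, against -0.71 ± 0.07 at D0. In the cytoplasm it was -1.50 ± 0.02, against -0.35 ± 0.10 at D0. On D2, D7, D14 and D16 it was -0.82, -0.77, -0.54 and -0.44 in the heavy pool. In the cytoplasm it was -0.63, -0.35, -0.62 and -0.56 on those days. D2 and D7 overlapped D0 in both fractions, and D14 and D16 lay above D0 in the heavy pool. Apart from the overlaps named, none of these groups overlapped D0. Each group that did not overlap D0 had the smallest exact permutation p of 0.1 that 3 libraries against 3 can give.

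**Figure D4:**
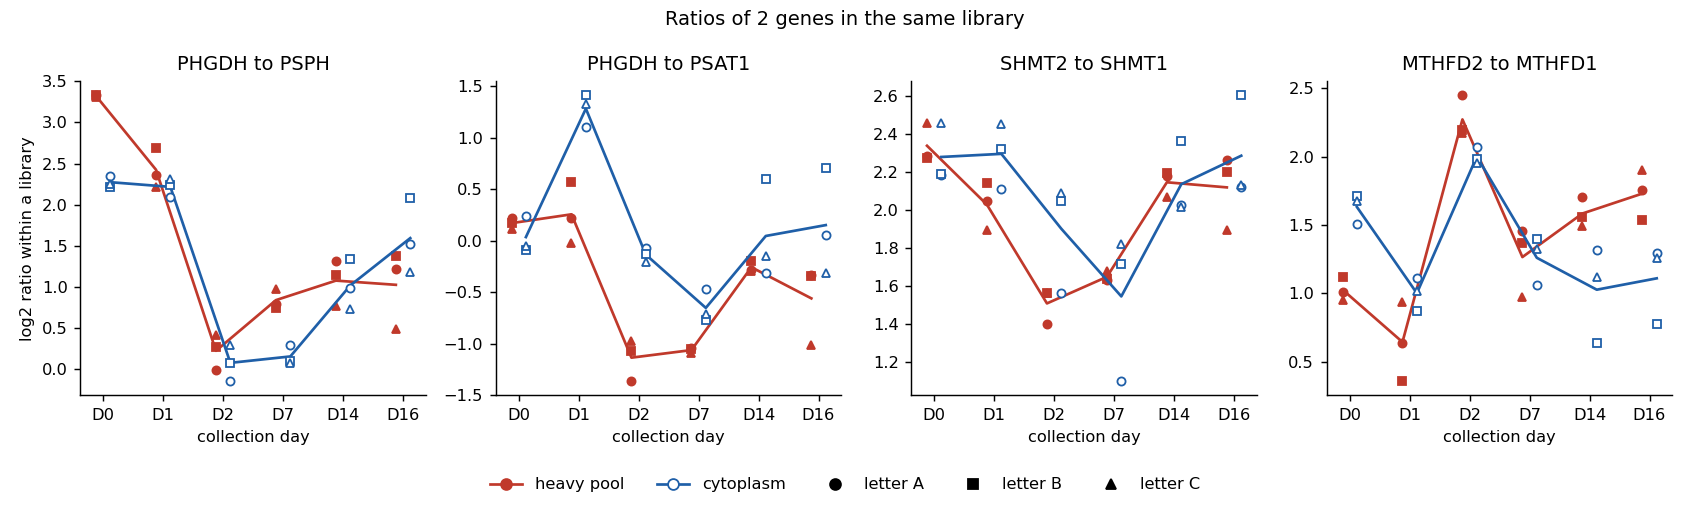
Log2 ratio of the normalised counts of 2 genes in the same library, by collection day, in the heavy pool (filled red) and the cytoplasm (open blue), with symbols for letters and lines through the means. PHGDH to PSPH drops from D1 to D2 in both fractions, and MTHFD2 to MTHFD1 peaks at D2.

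Genes around the pathway were counted in lists. At D2 most lists held mainly lower calls in the heavy pool, where 30.4% of all genes were called higher and 34.5% lower; in the cytoplasm 14.2% were higher and 10.6% lower. Of the other genes of serine and glycine metabolism, 3 were higher and 6 lower of 10 in the heavy pool (median -0.36, and 0.03 with equal totals) and 1 higher and 3 lower in the cytoplasm (median -0.53). CTH, which makes cysteine from cystathionine, had -2.26 in the heavy pool and -1.58 in the cytoplasm, and SHMT1 had -1.35 in the heavy pool. SDSL, a serine dehydratase-like gene, had 0.55 and 0.90. Of 10 transporters of serine, glycine and other neutral amino acids, 0 were higher and 9 lower in the heavy pool (median -0.92) and 0 higher and 7 lower in the cytoplasm (median -0.94); SLC7A11, the cystine and glutamate exchanger, had -2.48 and -3.31.

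The pathways that feed serine synthesis or use one-carbon units moved as follows at D2. Of 14 glycolytic genes, 13 were lower in the heavy pool (median -1.22) and 5 in the cytoplasm (median -0.35), with none higher; ENO1, enolase, had -2.18 and -1.09. Of 12 genes of purine synthesis, 11 were lower in the heavy pool (median -0.97) and 7 in the cytoplasm (median -0.68), with none higher; GART, which takes a one-carbon unit in its transformylase step, had -1.80 and -1.31, and PFAS had -1.73 and -1.57. Of 19 genes of the cytosolic folate and methionine cycle, 2 were higher and 11 lower in the heavy pool (median -0.37, and 0.01 with equal totals) and 1 higher and 6 lower in the cytoplasm (median -0.50). MTHFD1 had -1.90 and -0.95, and SLC46A1, the proton-coupled folate transporter, was higher in both fractions at 1.13 and 1.08. Of 10 genes of mitochondrial translation initiation and tRNA formylation, which also uses a folate-borne one-carbon unit, 1 was higher and 5 lower in the heavy pool (median -0.25, and 0.13 with equal totals) and 0 higher and 2 lower in the cytoplasm (median -0.09).

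Of ATF4 and 18 of its other known targets, 4 were higher and 13 lower in the heavy pool at D2 (median -1.28) and 4 higher and 11 lower in the cytoplasm (median -0.98). The list did not move one way: PCK2, mitochondrial phosphoenolpyruvate carboxykinase, had -3.69 in the heavy pool and -2.58 in the cytoplasm, while ATF3, a stress-response factor, had 2.22 and 2.32 and NUPR1 had 1.39 and 1.40. ATF4 itself, named after its values were seen, had -2.23 in the heavy pool and -0.99 in the cytoplasm at D2. All 20 cytosolic aminoacyl-tRNA synthetases, several of them ATF4 targets, were lower in the heavy pool (median -1.31) and 13 in the cytoplasm (median -1.07), led by AARS1 at -2.52 and -1.95. Of 15 upstream kinases and regulators, 4 were higher and 7 lower in the heavy pool (median -0.16, and 0.22 with equal totals) and 1 higher and 1 lower in the cytoplasm. MDM2, a p53 target and its inhibitor, had 2.60 and 1.95, and EHMT2, a histone methyltransferase known to regulate serine synthesis genes, had -1.66 and -1.02.

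At D14 the medians of the 9 lists ran from -1.38 to -0.42 in the heavy pool and from -0.73 to -0.06 in the cytoplasm. In the heavy pool all 14 glycolytic genes (median -1.28) and all 20 aminoacyl-tRNA synthetases (median -1.38) were called lower, as were 11 of 12 purine genes (median -0.94); of all genes 34.4% were higher and 37.6% lower. In the cytoplasm 5, 6 and 3 genes of these lists were called lower; of all genes 7.75% were higher and 5.05% lower. Of the ATF4 list, 8 were higher and 11 lower in the heavy pool (median -0.51), and 4 higher and 6 lower in the cytoplasm (median -0.06, and 0.08 with equal totals). PCK2 was still lower (-2.85 in the heavy pool and -1.84 in the cytoplasm), and NUPR1 was higher (2.07 and 1.37). GCSH, a subunit of the glycine cleavage system (1.56), and MTHFD2L, a mitochondrial relative of MTHFD2 (1.18), were called higher in the heavy pool at D14 and not in the cytoplasm (-0.85 and -0.58), with called differences between the fractions (2.41 and 1.76).

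**Figure D5:**
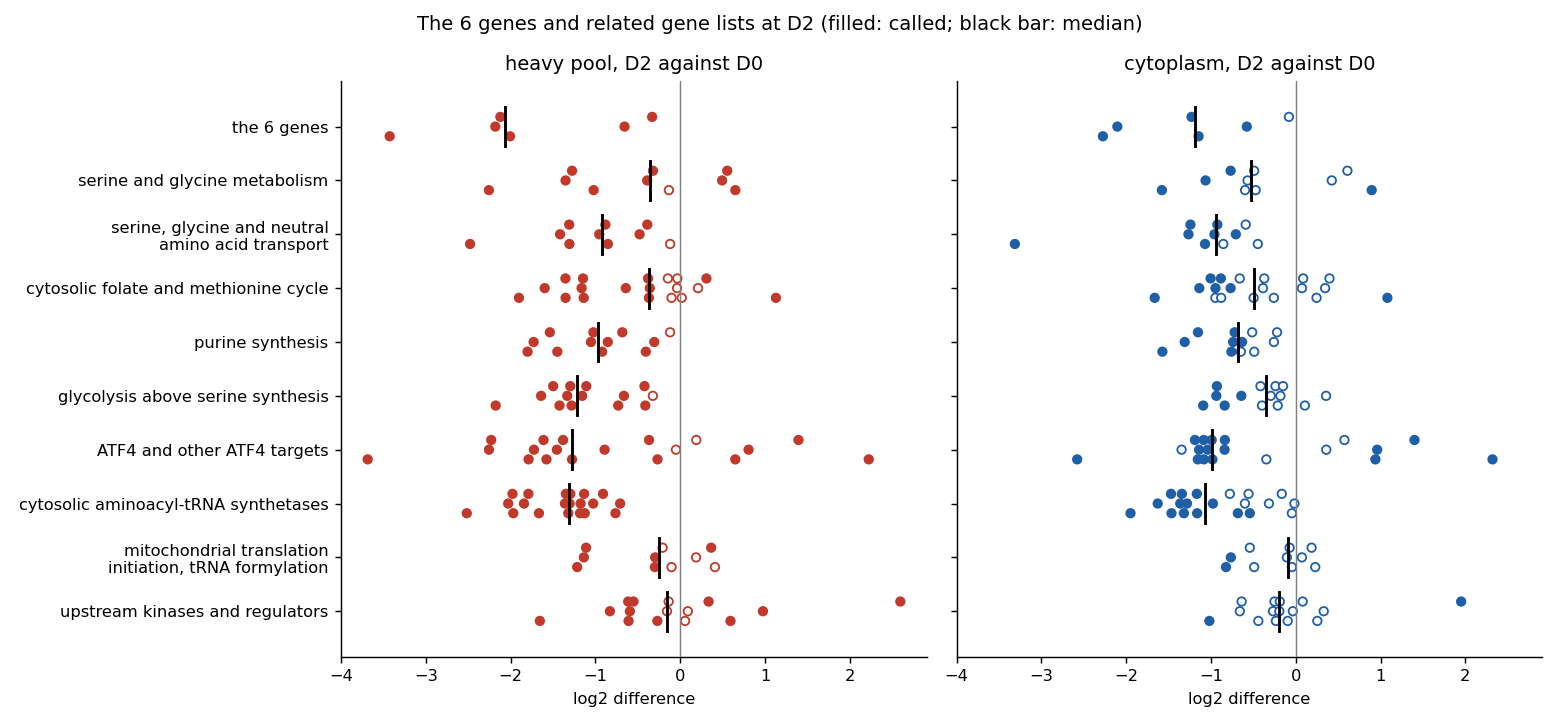
Log2 difference between D2 and D0 of every tested gene in the 6 genes and 9 related lists, in the heavy pool (left) and the cytoplasm (right); filled points were called, open points were not, and black bars are list medians. The 6 genes have the lowest medians, at -2.06 and -1.19, and the aminoacyl-tRNA synthetases are next lowest, at -1.31 and -1.07.

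Among the 6, the closest day courses over the 10 differences from D0 were those of PSPH and MTHFD2 (root mean square distance 0.56 on the log2 scale), SHMT2 and MTHFD1L (0.56) and MTHFD2 and MTHFD1L (0.61), and the farthest were PHGDH and PSPH (1.95). The other genes ranked were 11173 protein-coding ones averaging 100 or more in each fraction, and the courses most like the mean of the 6 were UBTF (0.16), HNRNPK (0.20), GART (0.20), KDM1A (0.21), RCC1 (0.21), GARS1 (0.22), SF1 (0.22) and CWF19L1 (0.23). That mean does not stand for each of the 6. By nearness to the mean of the rest of the 6, PHGDH ranked 7144, PSPH 4040 and PSAT1 2172 of 11174 genes. MTHFD2 ranked 893, SHMT2 355 and MTHFD1L 62. PHGDH alone was nearest to KIFC1 (0.31), MCM7 (0.33) and CDC20 (0.34), and ETV1 (0.36) and MARS1 (0.39) were among the nearest to PSAT1. PSPH was nearest to CYREN (0.11), FCHO1 (0.13) and COPS7A (0.15). SHMT2 was nearest to PTBP1 (0.18), NUP85 (0.18) and TELO2 (0.18), MTHFD2 to CNOT9 (0.13), CYB561A3 (0.15) and NUDT21 (0.15), and MTHFD1L to CARS1 (0.17), TFAP4 (0.19) and SAPCD2 (0.20). The distances are descriptions: the 5 differences of a fraction share the D0 libraries and the same letters.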

How the data were processed

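RNA was sequenced from the heavy polysome pool and the cytoplasm of HCT116 cells on 6 days. The tools named in the submitters' processing notes are DESeq2 1.30.1, featureCounts from Subread 2.0.1, STAR 2.7.9a with GRCh38, cutadapt 3.2 and FastQC 0.11.9. Whether counting used strand is not given in the sources used here. The deposited values are a signal: gene counts that the authors divided by 1 size factor per library, called normalised counts here. The 36 columns of the samples were used, out of 54; the remaining 18 matched no sample. All listed values were at least 1.004, so a gene silent in any library was not analysed here.

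Reads per library were summed after dividing by the value of 1 read (100% of values whole within 0.01, the smallest listed value standing for 1 to 3 reads); depths and RPKM rest on this division. Values were taken as log2(value + 1), genes with at least 10 in 3 libraries were kept, and limma 3.58.1 (R 4.3.3; lmFit and trended eBayes) modelled group means of all days per fraction, and of all 12 groups for heavy pool against cytoplasm. Tests were two-sided, with Benjamini-Hochberg adjustment across every gene tested and calls at an adjusted p under 0.05. Coordinates and lengths come from GENCODE 29, and promoters from RefSeq. The procedure was tested on simulated data.

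The labels call the letters batches, so same-letter libraries share a batch. The main fits left the letter out, and it entered only as the block alternative. Main fits between fractions took heavy pool and cytoplasmic libraries of the same letter as independent, with a shared spread. Correlation of letters was checked within each fraction and not between fractions. Deviations from group means correlated over same-letter pairs by 0.235 on average in the cytoplasm (over 0.1 in 28 of 45 pairs) and 0.106 in the heavy pool (25 of 45). Alternatives were pseudocounts of 0.1 and 10, no filter, equal totals, trimmed mean of M values (TMM) scaling, the letter as a block, fits of only the groups compared, each letter left out, and 4 cytoplasmic libraries left out. The 6 genes and the lists were chosen with earlier results of these data known. Named genes are the 6, up to 2 highest and 2 lowest called of each list, the 8 courses nearest to the mean of the 6 and the 3 nearest to each; 1 gene near PSAT1 is not reported here.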

Additional observations from a re-analysis of the deposited data

Results flagged for a closer look

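The change from D0 differed between the heavy pool and the cytoplasm for 4 of the 6 genes on at least 1 day, by the interaction of fraction and day in limma; the values are the heavy pool change minus the cytoplasmic change on the log2 scale. For PHGDH the difference was -1.11 ± 0.29 (SE) at D1 (adjusted p = 0.030), -1.15 ± 0.29 at D2 (0.0277), -0.96 ± 0.29 at D14 (0.0136) and -1.59 ± 0.29 at D16 (0.000236). For SHMT2 it was -0.93 ± 0.30 at D14 (0.0211) and -1.39 ± 0.30 at D16 (0.000997). For MTHFD1L it was -0.78 ± 0.19 at D2 (0.0267), -0.61 ± 0.19 at D14 (0.0176) and -0.87 ± 0.19 at D16 (0.00123). For PSAT1 it was -0.52 ± 0.20 at D14 (0.0459) and -0.74 ± 0.20 at D16 (0.00547). Groups of 3 libraries were too small for a check of single libraries. Of all genes, 3.37%, 2.03%, 16.7% and 17.9% were called lower at D1, D2, D14 and D16. Genes called different between the fractions numbered 7280 at D0, 196 at D14 and 135 at D16, so the late change was not particular to these. With equal totals only the D16 calls of PHGDH and SHMT2 were kept. The D1 and D2 calls were lost when any 1 letter was left out, and at D14 between 0 and 2 calls were left.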

How the results depend on the processing

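Of the 36 differences tested between fractions and the 108 between days, pseudocounts of 0.1 and 10 and no filter on low values changed no call and no direction. The planned edgeR and DESeq2 tests of read counts were not run. Where a count of calls moved, the cause was not tested.

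Of the 6 genes, equal totals gave 2 calls in the cytoplasm at D14 and 2 at D16 against D0, 1 at D2 against D1, 0 at D7 against D2 and 2 at D14 against D7, and 0 in the heavy pool at D16 against D14. Between fractions equal totals gave 0 at D1, 0 at D2, 1 at D7, 0 at D14 and 2 at D16. With the replicate block 2 were called between fractions at D1, 2 in the cytoplasm at D14 against D7 and 2 in the heavy pool at D16 against D14, and no other count of the 6 moved by over 1.5 times. Fits of only the groups compared gave 2 between fractions at D1 and 1 in the cytoplasm at D7 against D2. Without the 4 cytoplasmic libraries there were 5 calls in the cytoplasm at D1 and 1 at D14 against D7, and between fractions 2 at D1 and 4 at D2.

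With 1 letter left out, calls in the cytoplasm ranged from 1 to 2 at D1, 3 to 5 at D2, 3 to 4 at D7, 1 to 3 at D14 and 1 to 3 at D16 against D0, 0 to 2 at D2 against D1, 0 to 2 at D7 against D2, and 0 in the later steps. In the heavy pool they were 6 at D1, 5 to 6 at D2, 5 at D7, 5 at D14 and 6 at D16 against D0, 4 to 5 at D2 against D1, 5 at D7 against D2, 2 to 4 at D14 against D7 and 0 to 1 at D16 against D14. Between fractions they were 4 at D0, and against D0 they were 0 at D1, D2 and D7, 0 to 2 at D14 and 3 to 4 at D16. By F test 2 to 5 changed in the cytoplasm, 6 on ribosomes and 3 between fractions.

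Signs turned for small differences. With equal totals the cytoplasmic ones were -0.073 for SHMT2 at D1 and -0.17 for PSPH at D7 against D0, and 0.27 for PSAT1, 0.11 for PSPH, 0.45 for MTHFD2 and 0.41 for MTHFD1L at D14 against D7. In the heavy pool they were 0.050 at D2 and 0.13 at D14 for PSPH, and 0.10 for MTHFD2 at D2 against D1. Between fractions they were 0.18 for PSPH, 0.30 for MTHFD2 and 0.16 for MTHFD1L at D1, 0.48 for PSAT1, 0.24 for PSPH and 0.41 for MTHFD2 at D2, 0.28 for PHGDH, 0.44 for SHMT2 and 0.32 for MTHFD1L at D7, and 0.13 for MTHFD2 at D16. TMM scaling gave 0.0046 for MTHFD2 in the cytoplasm at D14 against D7. Without the 4 libraries PSPH had 0.10 at D2 against D0, SHMT2 0.14 at D7 against D2 and MTHFD2 0.0017 at D14 against D7 in the cytoplasm, and between fractions PSPH had -0.052 at D7 and MTHFD2 -0.0093 at D14. With 1 letter left out, the values in the cytoplasm ranged from -0.23 to 0.12 (without letter C) for PSPH at D2 against D0, from -0.0053 (C) to 0.43 for PSPH and from -0.26 to 0.021 (A) for SHMT2 at D7 against D2, and from -0.21 to 0.18 (B) for MTHFD2 and from -0.18 to 0.030 (C) for MTHFD1L at D14 against D7. Those in the heavy pool ranged from -0.29 to 0.059 (C) for PHGDH at D14 against D7 and from -0.061 (C) to 0.15 for PSAT1 at D16 against D14, and those between fractions from -0.084 to 0.088 (B) for PSAT1 at D2, and for PSPH from -0.045 (A) to 0.076 at D7, from -0.082 (C) to 0.16 at D14 and from -0.035 (A) to 0.10 at D16.

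Counts over all genes moved most where cytoplasmic spread entered: 2850 were called in the cytoplasm at D1, 5494 with only the groups compared and 6203 without the 4 libraries, which gave 6725 against 3943 at D2, 3710 against 2035 at D14 and 4132 against 2659 at D16. At D2 against D1 the cytoplasm had 1348, with 704 under equal totals, 2113 with the block, 436 with only the groups compared and 2284 without the 4 libraries. At D7 against D2 it had 3377, with 5120 with the block and 1070 with only the groups compared, and at D14 against D7 5656 and 3241. Between fractions 661 were called at D1, with 44 under equal totals, 434 with TMM, 1108 with the block, 3790 with only the groups compared and 5290 without the 4 libraries. At D2 there were 328, with 132 under equal totals and 4139 without the 4 libraries, and at D7 627, with 1589 under equal totals and 964 with the block. With 1 letter left out, calls in the cytoplasm against D0 ranged from 531 to 1822 at D1, 1794 to 2682 at D2, 1322 to 4616 at D7 (5398 with all), 253 to 1100 at D14 and 438 to 1515 at D16, and in its steps from 11 to 978 at D2 against D1, 287 to 2582 at D7 against D2 and 1191 to 5223 at D14 against D7, each lowest without letter C. Between fractions they ranged from 0 to 85 at D1, 4 to 34 at D2, 25 to 230 at D7, 1297 to 3352 at D14 (4490 with all) and 1768 to 4056 at D16 (4687), lowest without letter B at D2 and D14 and without C on the other days. In the heavy pool at D16 against D14 they ranged from 538 to 2956. The shares of all genes called rest on these counts.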
